A study of Mus musculus with 32 samples.

Results

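Transcripts of 10 hypoxia-inducible genes were followed in YUMM3.3 cells, a Braf mutant mouse melanoma cell line, that received Activin-A, IFN-γ or both. The genes were Egln1, Egln3, Ldha, Pgk1, Bnip3, Vegfa, Ankrd37, Ndrg1, P4ha1 and P4ha2, taken by name as well-known hypoxia targets and found by matching Ensembl identifiers to symbols. All 10 were among the 12451 genes listed, and all 10 passed the filter on low counts in each fit. mRNA was measured by BRB-seq, in which the cDNA of each sample is barcoded, samples are pooled, and 3′ ends of transcripts are sequenced. The 8 groups were untreated cells, cells given 40 ng/ml Activin-A, cells given 20 ng/ml IFN-γ, and cells given both at these doses, each harvested at 4 hrs and at 12 hrs, with 4 wells per group. The labels and the study's methods give these doses, and some of its figure legends give a higher dose of Activin-A. All cells came from the same line and were cultured in normal medium, and the labels name no hypoxic culture. The p-values measure the spread between wells, since nothing says that wells were independent cultures beyond having been seeded separately. In such bulk samples, fewer cells with a transcript and less of it per cell cannot be told apart. Neither can the harvest time and anything else that differed between the 4 hrs and 12 hrs wells.

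When oxygen is scarce, hypoxia-inducible factors (HIFs) accumulate and activate genes for anaerobic glucose use, blood vessel growth and matrix synthesis. With oxygen present, prolyl hydroxylases mark the HIF alpha subunits for recognition by Vhl and for degradation. HIFs bind DNA at hypoxia response elements, whose core is ACGTG or GCGTG, and the hydroxylases Egln1 and Egln3 are themselves HIF targets, which closes a feedback loop. In melanoma, HIF activity is also known to respond to signals other than oxygen.

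Promoter sequences of the 4 members that changed with a factor alone are shown because they differ in whether and where they hold this core. They are the 250 bases before the start of the gene in RefSeq's annotation of GRCm38.p6, 5′ to 3′ on the strand of the gene, at chr7:138909507-138909756 (minus strand) for Bnip3, chr7:46845554-46845803 (plus strand) for Ldha, chr17:46032378-46032627 (minus strand) for Vegfa and chr8:45999851-46000100 (minus strand) for Ankrd37. The windows of Ldha and Ankrd37 lie inside, and that of Bnip3 ends within, the longer gene models of GENCODE. That of Vegfa is outside its model. Capitals mark ACGTG or GCGTG on either strand, so that the reverse complements CACGT and CACGC are also in capitals, and CACGTG counts once on each strand.

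Bnip3: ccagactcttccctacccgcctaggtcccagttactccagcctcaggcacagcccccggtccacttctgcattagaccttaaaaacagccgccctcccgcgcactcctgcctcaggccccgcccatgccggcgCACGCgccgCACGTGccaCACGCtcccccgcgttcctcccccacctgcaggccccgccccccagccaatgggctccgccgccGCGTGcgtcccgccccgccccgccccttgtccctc
Ldha: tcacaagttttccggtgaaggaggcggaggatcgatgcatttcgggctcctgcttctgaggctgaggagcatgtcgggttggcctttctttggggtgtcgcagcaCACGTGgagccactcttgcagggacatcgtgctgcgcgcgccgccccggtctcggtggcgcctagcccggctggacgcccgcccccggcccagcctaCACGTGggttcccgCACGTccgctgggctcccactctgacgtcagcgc
Vegfa: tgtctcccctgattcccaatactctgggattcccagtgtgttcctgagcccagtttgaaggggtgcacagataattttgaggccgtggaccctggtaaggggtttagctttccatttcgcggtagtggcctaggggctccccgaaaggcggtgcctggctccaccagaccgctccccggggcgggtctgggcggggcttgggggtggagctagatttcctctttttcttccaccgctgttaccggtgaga
Ankrd37: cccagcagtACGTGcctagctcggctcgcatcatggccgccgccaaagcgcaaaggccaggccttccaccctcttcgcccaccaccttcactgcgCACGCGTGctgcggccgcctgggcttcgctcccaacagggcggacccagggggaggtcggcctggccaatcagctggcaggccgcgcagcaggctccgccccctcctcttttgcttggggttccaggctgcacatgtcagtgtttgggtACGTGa

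Bnip3 and Ldha had 5 matches each and Ankrd37 had 4, whereas the Vegfa window had 0. Bases outside these windows were not searched, so a window without a match does not mean a gene without a site. In Bnip3 the match nearest to the start began 35 bases before it, in Ldha 34 bases and in Ankrd37 6 bases. Bnip3 and Ldha, but no other member with a sequence at hand, held the palindrome CACGTG, which is also the E-box bound by other factors. Of the 10 members, 9 had a promoter in the RefSeq table, all but Ndrg1. A match was found in 8 of these 9, against 38.6% of the promoters of all 27025 genes, and CACGTG in 2 of 9, against 6.04%. The windows of members were richer in G and C, with a median of 67.6% against 52.0% over all genes, so these shares describe the letters and not binding.

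Totals ranged from 654539 to 1455074 counts per sample, at which 3 counts equal 2.06 to 4.58 CPM, counts scaled to a common library size. The lowest count of a member in any sample was 6, for Egln3. CPM below are normalized by the trimmed mean of M values (TMM). Adjusted p-values are Benjamini-Hochberg values of the quasi-likelihood test in edgeR, over all genes tested, 9137 at 4 hrs, 8971 at 12 hrs and 9332 across times. Genes with an adjusted p under 0.05 are called DEGs. Activin-A wells had higher Pmepa1, a Smad target (a mean of 327 CPM against 56.0 in untreated wells at 4 hrs and 139.7 against 38.6 at 12 hrs), and IFN-γ wells had higher Irf1, an interferon-induced transcription factor (783 against 42.3 and 702 against 45.2). The melanocyte lineage was represented by 9 of 10 markers. Of 9 immune markers 3 were listed, with a summed level of 2.94 to 26.0 CPM, and of 6 endothelial markers 0 were listed. Replicate 1 of Activin-A at 4 hrs stood apart, with a chi-square per gene of 2.45 to 2.89 against its replicates where all other replicate pairs had 1.16 to 1.54. Calls of members between treatments at 4 hrs that used it, and those of other genes named at 4 hrs, are given with and without it. The calls of Ldha and Ndrg1 over time with Activin-A were kept with each sample left out (edgeR adjusted p of up to 2.99e-05 and 0.0179).

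Activin-A lowered Bnip3 at 4 hrs and Ldha at 12 hrs and raised 0 of the members, where 1.05% of all genes tested at 4 hrs and 1.25% at 12 hrs were higher DEGs. At 4 hrs Bnip3 fell, the single DEG among the 10 members, where 0.591% of all genes tested were lower DEGs and 1.64% were DEGs in either direction. At 12 hrs Ldha fell and was again the single DEG, against a background of 1.16% lower and 2.41% in either direction. The median log2 fold change of the members was -0.09 at 4 hrs and 0.05 at 12 hrs, against 0.00 over all genes at each time. At 4 hrs all 4 wells with Activin-A were below all 4 untreated wells for Ldha, Pgk1 and Bnip3, 3 of 10 members against 2.88% of all genes, and at 12 hrs for Ldha and Pgk1, 2 of 10 against 3.28%. The unadjusted p was under 0.05 for 3 members at 4 hrs and for 2 at 12 hrs, as for 1028 of 9137 and 1017 of 8971 genes, and each of these had a negative log2 fold change.

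IFN-γ raised Bnip3, Vegfa and Ankrd37 at 12 hrs, 3 of 10 members, where 6.43% of all genes tested were higher DEGs and 9.25% were DEGs in either direction. At 4 hrs 0 of 10 were DEGs by edgeR, and DESeq2 also called 0, against a background of 5.06%. The unadjusted p at 4 hrs was under 0.05 for 0 members, where it was for 1217 of 9137 genes. At 12 hrs the unadjusted p was under 0.05 for 6 members, as for 1672 of 8971 genes, all 6 with a positive log2 fold change, and 4 members (Bnip3, Vegfa, Ankrd37 and P4ha1) lay above the untreated wells without overlap, against 7.88% of all genes. The median log2 fold change of the members was 0.07 at 4 hrs and 0.21 at 12 hrs, against -0.01 over all genes at each time. The comparisons of Activin-A and of IFN-γ with untreated cells share the untreated wells.

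**Figure D1:**
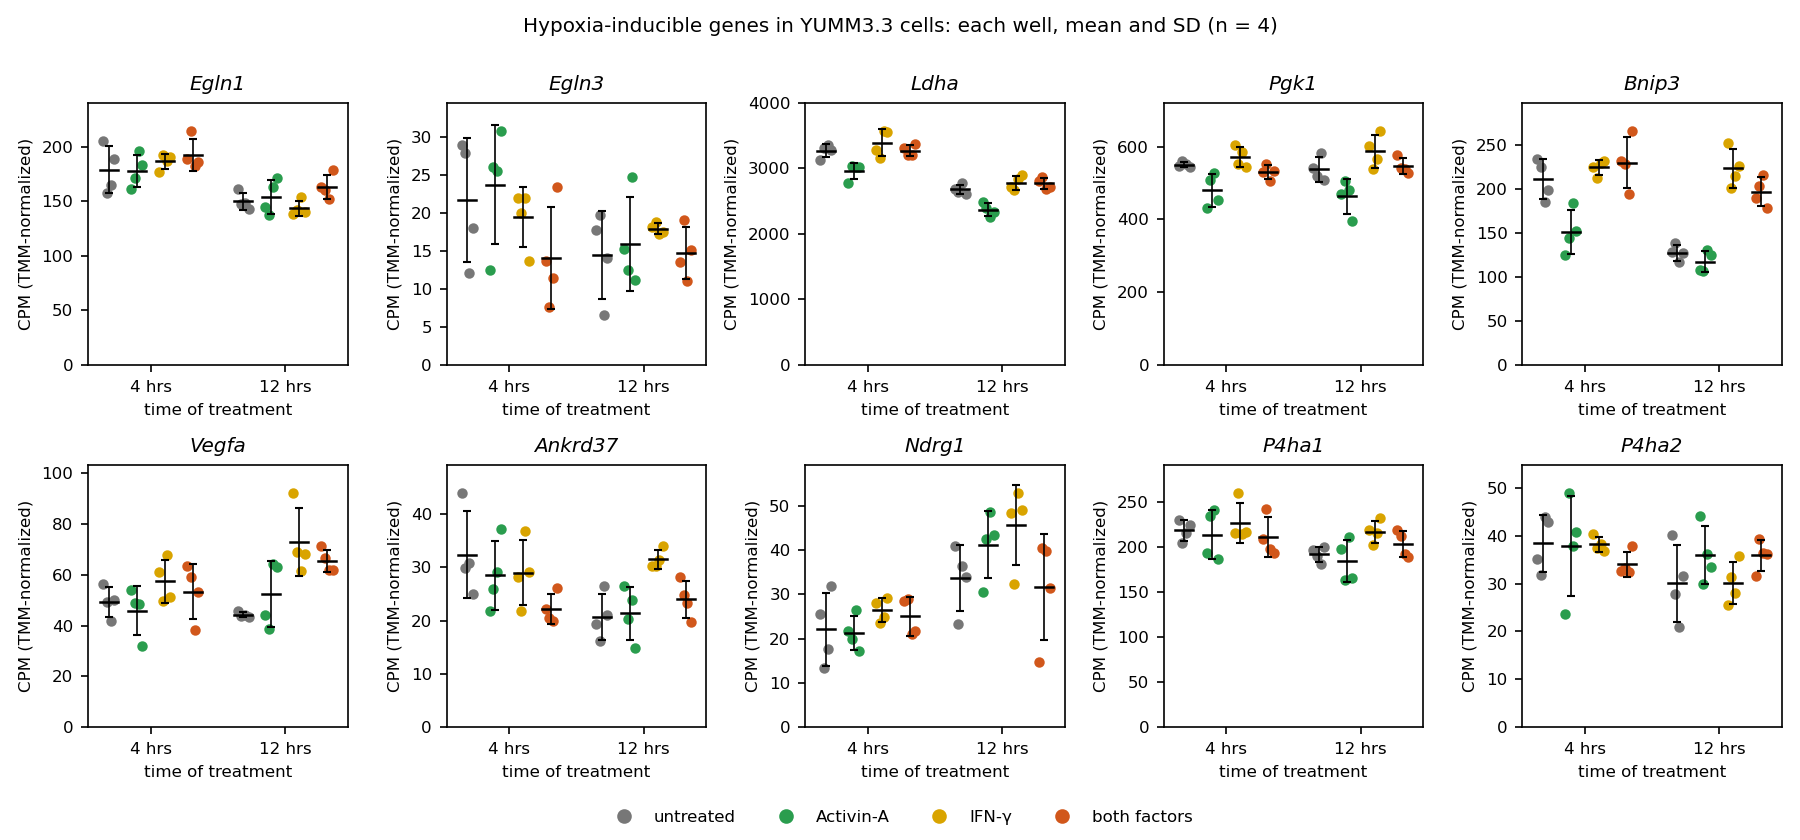
Levels of the 10 members in each well (y axis, TMM-normalized CPM from 0) by treatment (colour) at 4 and 12 hrs (x axis), with horizontal lines for the mean and bars for 1 SD, n = 4 wells per group. Bnip3 in untreated wells is at 186 to 235 CPM at 4 hrs and at 117 to 139 at 12 hrs, while with IFN-γ it is at 213 to 231 and at 201 to 252.

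**Figure D2:**
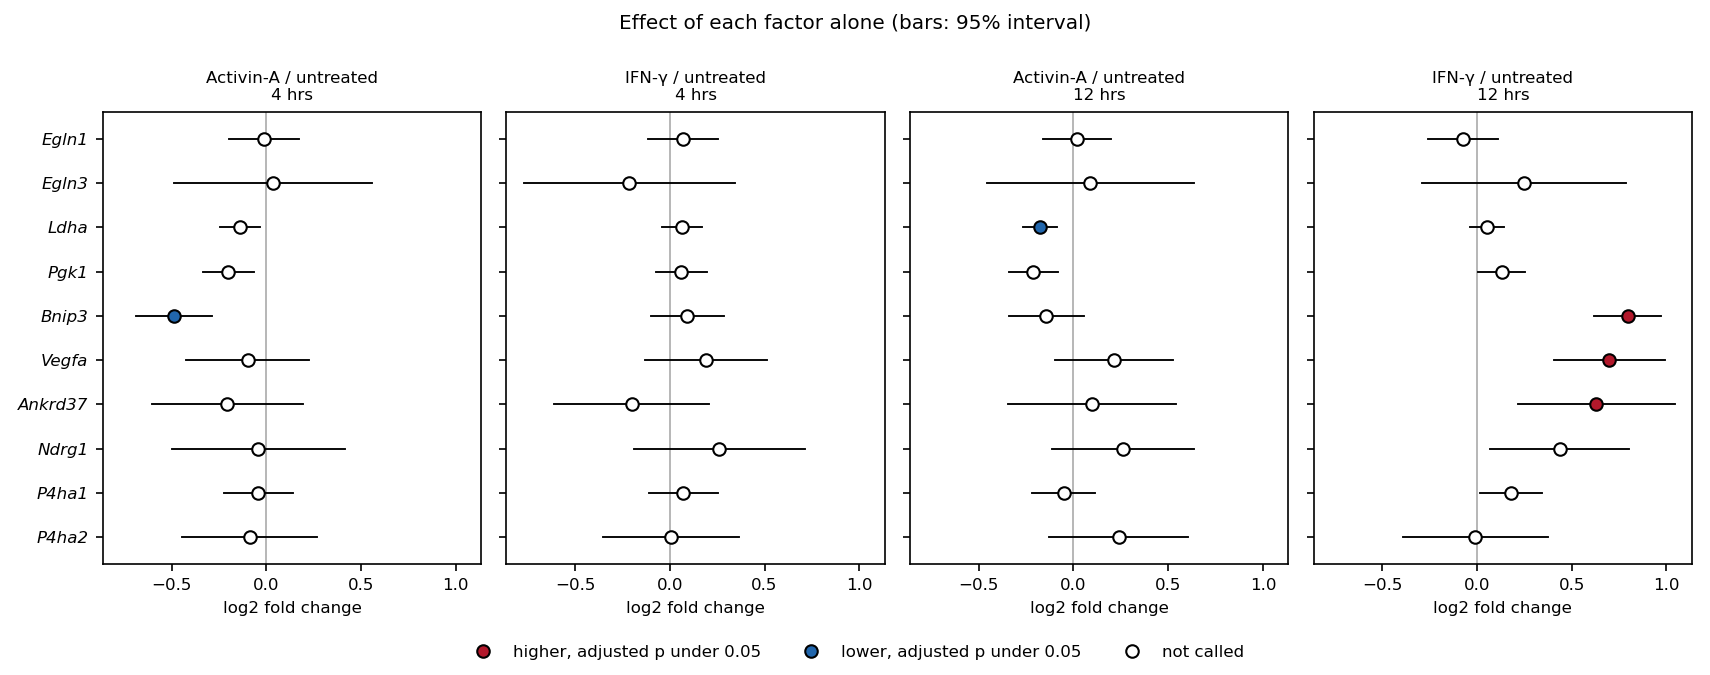
Log2 fold change of each member (x axis) with Activin-A or IFN-γ alone against untreated wells at 4 and 12 hrs, points for the estimate, bars for its 95% interval and fill for an adjusted p under 0.05. Filled points are Bnip3 (-0.49) with Activin-A at 4 hrs, Ldha (-0.18) with Activin-A at 12 hrs, and Bnip3 (0.79), Vegfa (0.70) and Ankrd37 (0.63) with IFN-γ at 12 hrs.

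Bnip3, a mitochondrial protein of the outer membrane that promotes mitophagy and cell death, was a DEG with each factor. At 4 hrs the untreated wells had 234.7, 225, 186 and 199 CPM, and the wells with Activin-A had 125, 144, 184 and 152 CPM. The highest Activin-A well was just under the lowest untreated well. Bnip3 fell by 0.49 on the log2 scale with Activin-A (SE 0.10, 95% interval -0.69 to -0.29, edgeR adjusted p = 0.0018). Without replicate 1 of Activin-A, the lowest of the 4 wells, the log2 fold change was -0.39 (edgeR adjusted p = 0.0181). Over all settings and left-out samples the edgeR or DESeq2 adjusted p of this difference ranged from 0.000132 to 0.0261. At 12 hrs the Activin-A wells had 108, 106, 130.3 and 125 CPM and overlapped the untreated wells at 128, 139, 117 and 127 CPM, with a log2 fold change of -0.14 (SE 0.10, edgeR adjusted p = 0.654). The Activin-A effect at 12 hrs minus that at 4 hrs was 0.35 on the log2 scale (SE 0.14), which was not past the threshold (edgeR adjusted p = 0.747), in a test in which 0.0214% of all genes were DEGs.

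With IFN-γ, Bnip3 had 225, 213, 229 and 231 CPM at 4 hrs and 252, 201, 215 and 226 CPM at 12 hrs. The former values overlapped those of untreated wells, whereas every IFN-γ well at 12 hrs was above every untreated well. The log2 fold change was 0.09 at 4 hrs (SE 0.10, edgeR adjusted p = 0.777) and 0.79 at 12 hrs (SE 0.09, a 1.73-fold difference, edgeR adjusted p = 1.94e-12). The difference between these effects was itself past the threshold, 0.72 on the log2 scale (SE 0.13, edgeR adjusted p = 0.000412), in a test in which 0.579% of all genes were DEGs. Behind it, Bnip3 in untreated wells was lower at 12 hrs than at 4 hrs by -0.72 (SE 0.10, edgeR adjusted p = 4.25e-08), while with IFN-γ the difference between times was -0.01 (95% interval -0.19 to 0.17).

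Wells with both factors had 232, 228, 194 and 266 CPM of Bnip3 at 4 hrs and 189.7, 204, 216 and 178 CPM at 12 hrs. These lay with the IFN-γ wells and above all Activin-A wells at the same time. Against Activin-A alone Bnip3 rose by 0.62 at 4 hrs (SE 0.10, edgeR adjusted p = 3.05e-06; 0.51 without replicate 1 of Activin-A) and by 0.76 at 12 hrs (SE 0.10, edgeR adjusted p = 1.49e-10). Against IFN-γ alone the log2 fold changes were 0.03 (95% interval -0.15 to 0.22) and -0.18 (-0.35 to -0.01), with edgeR adjusted p-values of 0.962 and 0.444. The interaction of the factors at 4 hrs was 0.52 (SE 0.14) with an unadjusted p of 0.000365 in edgeR and an adjusted p of 0.546, so that it was not called. Without replicate 1 of Activin-A it was 0.43 (edgeR adjusted p = 0.488).

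Ldha, the lactate dehydrogenase subunit that turns pyruvate into lactate in anaerobic glycolysis, fell with Activin-A. At 12 hrs untreated wells had 2690, 2642, 2777 and 2612 CPM and Activin-A wells had 2495, 2398, 2265 and 2328 CPM, without overlap. Ldha fell by 0.18 on the log2 scale (SE 0.05, a ratio of 0.884, edgeR adjusted p = 0.00975). The call was lost without replicate 3 of Activin-A (edgeR adjusted p = 0.0678) or replicate 3 of the untreated wells (0.0657), with a log2 fold change of -0.16 in both cases. At 4 hrs Activin-A wells had 2783, 3032, 3027 and 3018 CPM, all under the untreated wells at 3134 to 3362 CPM, with a log2 fold change of -0.14 (SE 0.05, edgeR adjusted p = 0.215). IFN-γ gave 0.06 at 4 hrs and 0.05 at 12 hrs (SE 0.05 each), and neither was called. Wells with both factors had 2811, 2873, 2688 and 2723 CPM at 12 hrs, above each well with Activin-A alone, and Ldha rose by 0.23 against Activin-A alone (SE 0.05, edgeR adjusted p = 8.02e-05).

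Pgk1, the phosphoglycerate kinase that yields ATP in glycolysis, lay below untreated wells with Activin-A at both times without passing the threshold. Untreated wells at 12 hrs had 540.4, 519, 583 and 507 CPM, and Activin-A wells had 469, 505, 482 and 396 CPM. The groups did not overlap, although the nearest wells had 505 and 507 CPM, and the log2 fold change was -0.21 (SE 0.06, edgeR adjusted p = 0.055). It was past the threshold without the filter on low counts (edgeR adjusted p = 0.0406), without replicate 2 of Activin-A (0.0233) and without replicate 4 of the untreated wells (0.0447). At 4 hrs the log2 fold change was -0.20 (SE 0.07, edgeR adjusted p = 0.135). With both factors Pgk1 had 577, 541, 539 and 529 CPM at 12 hrs and rose by 0.23 against Activin-A alone (SE 0.07, edgeR adjusted p = 0.00846), a call that was lost without replicate 4 of Activin-A (0.18, edgeR adjusted p = 0.0768).

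Vegfa, the growth factor that drives the sprouting of blood vessels, was highest with IFN-γ at 12 hrs. The wells with IFN-γ had 92.2, 69.0, 61.6 and 68.2 CPM, and the untreated wells had 45.6, 43.9, 44.0 and 43.3 CPM. Vegfa rose by 0.70 on the log2 scale (SE 0.15, a 1.62-fold difference, edgeR adjusted p = 0.000191), and the adjusted p stayed between 8.82e-05 and 0.0062 under all alternatives and with each sample left out. At 4 hrs IFN-γ wells had 61.2, 49.7, 67.6 and 51.4 CPM and untreated wells 56.3, 49.1, 41.7 and 50.0 CPM, which overlapped (log2 fold change 0.19, SE 0.16, edgeR adjusted p = 0.695). The effect of IFN-γ at 12 hrs minus that at 4 hrs was 0.52 (SE 0.22, edgeR adjusted p = 0.529), so that a difference between the times was not shown. With Activin-A, Vegfa at 12 hrs was at 44.2 and 38.7 CPM in 2 wells and at 64.1 and 63.2 CPM in the other 2, an SD of 13.0 against 0.998 in untreated wells. The log2 fold change was 0.21 (95% interval -0.10 to 0.53, edgeR adjusted p = 0.674). Wells with both factors had 71.2, 66.5, 62.0 and 61.8 CPM and did not differ from IFN-γ alone beyond their spread (-0.14, 95% interval -0.42 to 0.14, edgeR adjusted p = 0.822).

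Ankrd37, an ankyrin repeat protein and a frequent marker of HIF activity, was the third DEG with IFN-γ at 12 hrs. The IFN-γ wells had 30.3, 30.3, 31.3 and 34.1 CPM, above untreated wells at 19.3, 16.1, 26.4 and 21.04 CPM. Ankrd37 rose by 0.63 (SE 0.21, 95% interval 0.22 to 1.04, edgeR adjusted p = 0.0378). This call was weak: it was lost with DESeq2 (adjusted p = 0.234), without the filter on low counts (0.0543) and with each of the 8 compared wells left out except replicate 3 of the untreated wells. Without replicates 1 to 4 of IFN-γ in turn the edgeR adjusted p was 0.0508, 0.0626, 0.0708 and 0.128, and without untreated replicates 1, 2 and 4 it was 0.108, 0.170 and 0.0569. Ankrd37 overlaps Ufsp2 and Lrp2bp on the opposite strand in GENCODE's annotation, and since the strand used for counting is not given in the sources used here, their reads cannot be told apart from its own. Ufsp2 had means of 43 CPM with IFN-γ and 40 CPM without at 12 hrs (log2 fold change 0.08, edgeR adjusted p = 0.885), and Lrp2bp had 0 to 4 counts per sample. Activin-A gave log2 fold changes of -0.21 at 4 hrs and 0.10 at 12 hrs (SE 0.20 and 0.22), neither of them called. With both factors at 12 hrs the wells had 28.2, 24.8, 23.2 and 19.8 CPM, all under the IFN-γ wells, and the log2 fold change against IFN-γ was -0.40 (SE 0.21, edgeR adjusted p = 0.524).

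Beside these rises with IFN-γ at 12 hrs, the summed level of the fibroblast markers was lower. Of the 3 markers tested, 1 was a DEG, Col3a1, against 9.25% of all genes. The sum of the 4 of 6 fibroblast markers listed was 143 to 185 CPM with IFN-γ and 259.9 to 304 CPM in untreated wells, mostly from Col3a1 (118 against 222 CPM, log2 fold change -0.88, edgeR adjusted p = 6.69e-14). At the same time it was 300.4 to 343 CPM with Activin-A and 169 to 185 CPM with both factors. Lum and Thy1 were not among the genes listed, and Dcn had 0 to 8 counts per sample. The melanocyte markers summed to 417 to 435 CPM with IFN-γ and to 357 to 419 CPM in untreated wells, and the immune markers to 14.1 to 18.8 CPM and 13.2 to 20.1 CPM. Their part in the result was not tested.

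Ndrg1, a stress-responsive gene studied as a suppressor of metastasis, was a DEG over time but not with either factor. At 4 hrs the untreated wells had 25.5, 13.5, 17.6 and 31.97 CPM and at 12 hrs 41.0, 23.3, 36.3 and 33.9 CPM, with a log2 fold change of 0.60 (SE 0.22, edgeR adjusted p = 0.107). That difference passed the threshold without replicate 2 at 12 hrs (edgeR adjusted p = 0.0439) or replicate 4 at 4 hrs (0.0407). With Activin-A, Ndrg1 had 21.8, 19.9, 26.4 and 17.2 CPM at 4 hrs and 30.5, 42.6, 48.6 and 43.4 CPM at 12 hrs, and it rose by 0.91 (SE 0.21, edgeR adjusted p = 0.00208). With IFN-γ it had 28.2, 23.5, 25.0 and 29.1 CPM at 4 hrs and 48.5, 32.4, 52.9 and 49.1 CPM at 12 hrs, and it rose by 0.79 (SE 0.21, edgeR adjusted p = 0.00676). A difference of these changes from that in untreated wells was not shown, at 0.31 for Activin-A and 0.19 for IFN-γ (SE 0.31 each, edgeR adjusted p of 0.935 and 0.951). In wells with both factors at 12 hrs, replicate 1 had 14.7 CPM and the others 40.6, 39.8 and 31.5 CPM. The interaction at 12 hrs was -0.79 (SE 0.27) with an unadjusted p of 0.00462 in edgeR and an adjusted p of 0.427. Against untreated wells at the same time, neither factor alone made Ndrg1 a DEG, with log2 fold changes of 0.26 for Activin-A (edgeR adjusted p = 0.669) and 0.44 for IFN-γ (0.156) at 12 hrs.

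Egln1 and Egln3, the oxygen-sensing prolyl hydroxylases that are induced by the HIFs they restrain, were not DEGs by edgeR in any comparison of treatments at the same time, with an unadjusted p under 0.05 in 1 for each. Across these comparisons 0% to 9.62% of all genes were DEGs. Egln1 had 161 to 196 CPM with Activin-A, 176 to 193 CPM with IFN-γ and 158 to 205 CPM in untreated wells at 4 hrs. At 12 hrs the ranges were 137 to 171, 138 to 153 and 143 to 161 CPM, so that all groups of a time overlapped. Its log2 fold changes were -0.01 and 0.02 with Activin-A and 0.07 and -0.07 with IFN-γ (SE 0.09 each), and the 95% interval with Activin-A at 12 hrs ran from -0.16 to 0.20. Egln1 fell between 4 and 12 hrs with IFN-γ by 0.38 (SE 0.09, edgeR adjusted p = 0.00225). In untreated wells its log2 fold change over time was -0.25 (SE 0.09, edgeR adjusted p = 0.0847; 0.0412 without replicate 2 at 4 hrs), and the difference of -0.13 between the IFN-γ and untreated wells was not past the threshold (SE 0.13, edgeR adjusted p = 0.907). Egln3 had the lowest counts of the members, 6 to 34 per sample, and its intervals were wide. With Activin-A its log2 fold change was 0.04 at 4 hrs (95% interval -0.48 to 0.56) and 0.09 at 12 hrs (-0.46 to 0.64). Wells with both factors at 4 hrs had 13.7, 7.69, 11.4 and 23.4 CPM against 12.5, 26.0, 25.6 and 30.8 CPM with Activin-A alone. That difference, -0.69 (SE 0.28, edgeR adjusted p = 0.181), was past the threshold only without replicate 1 of Activin-A (-0.97, edgeR adjusted p = 0.0137) or replicate 4 of both factors (-1.07, edgeR adjusted p = 0.0331).

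P4ha1 and P4ha2, the catalytic subunits of the collagen prolyl hydroxylase, were DEGs in 0 of the 16 comparisons by edgeR, with an unadjusted p under 0.05 in 3 for P4ha1 and in 0 for P4ha2. P4ha1 in IFN-γ wells at 12 hrs had 218, 202, 215 and 232 CPM and lay above the untreated wells at 196, 190.0, 181 and 199.9 CPM. The log2 fold change was 0.18 (SE 0.08) with an unadjusted p of 0.0335 and an adjusted p of 0.211 in edgeR. With Activin-A the log2 fold changes of P4ha1 were -0.04 and -0.05 (SE 0.09 and 0.08) at 4 and 12 hrs. Those of P4ha2 were -0.09 and 0.24 (SE 0.18 each), with 95% intervals of -0.44 to 0.27 and -0.13 to 0.60.

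Adding Activin-A to IFN-γ changed 0 of the 10 members by edgeR at either time, and DESeq2 also called 0. Of all genes tested, 0.81% at 4 hrs and 1.03% at 12 hrs were DEGs in this comparison. The unadjusted p was under 0.05 for 0 members at 4 hrs, where it was for 850 of 9137 genes. At 12 hrs it was under 0.05 for 3 members (Bnip3, Egln1 and Ndrg1), as for 921 of 8971 genes. Adding IFN-γ to Activin-A raised 1 member at 4 hrs (Bnip3) and 3 at 12 hrs (Bnip3, Ldha and Pgk1), where 4.41% and 6.18% of all genes were higher DEGs and 6.07% and 9.62% were DEGs in either direction. The interaction of the factors was past the threshold for 0 members by edgeR at either time, as for 0% of all genes at 4 hrs and 0.0111% at 12 hrs. DESeq2 called 0 as well. The unadjusted p of the interaction was under 0.05 for Bnip3 at 4 hrs, as for 505 of 9137 genes. At 12 hrs it was under 0.05 for Ldha and Ndrg1, as for 612 of 8971 genes.

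Between 4 and 12 hrs some members fell in untreated cells. Ldha, Bnip3 and Ankrd37 were lower at 12 than at 4 hrs in untreated wells, 3 of 10 members where 2.57% of all genes were lower DEGs and 4.9% were DEGs in either direction. Ldha fell under all 4 treatments, by 0.29 in untreated, 0.32 in Activin-A, 0.29 in IFN-γ and 0.24 in both-factor wells (SE 0.05 each, edgeR adjusted p of 1.13e-05, 6.29e-07, 5.33e-06 and 0.000267), and in each the wells at 12 hrs lay below those at 4 hrs. Bnip3 fell by 0.72 in untreated wells and by 0.37 with Activin-A (SE 0.11, edgeR adjusted p = 0.0166). With Activin-A this call was lost in a fit of only the 8 samples (edgeR adjusted p = 0.0567) and without Activin-A replicates 1 (0.0796) or 2 (0.0663) at 12 hrs or replicate 3 at 4 hrs (-0.26, 0.163). It was kept without replicate 1 at 4 hrs, the well that stood apart (-0.48, edgeR adjusted p = 0.000946). With both factors the log2 fold change of Bnip3 was -0.22 (edgeR adjusted p = 0.140) and passed the threshold without replicate 3 at 4 hrs (-0.30, 0.0448). Ankrd37 had 44.0, 29.8, 30.7 and 25.0 CPM in untreated wells at 4 hrs, and its fall of 0.68 (SE 0.21, edgeR adjusted p = 0.037) was lost with DESeq2 (adjusted p = 0.113) and in 5 of 8 fits with a sample left out. Without replicate 1 at 4 hrs, the highest well, its log2 fold change was -0.48 (edgeR adjusted p = 0.269). The others were untreated replicates 1, 2 and 4 at 12 hrs (0.112, 0.142 and 0.0616) and replicate 3 at 4 hrs (0.051). In Activin-A wells 3 members were DEGs over time and in IFN-γ wells 3, against 6.97% and 8.41% of all genes, and in wells with both factors 1, against 7.1%. Fibroblast markers summed to 212 to 254 CPM in untreated wells at 4 hrs, below the 259.9 to 304 CPM at 12 hrs, and their part in these differences was not tested.

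**Figure D3:**
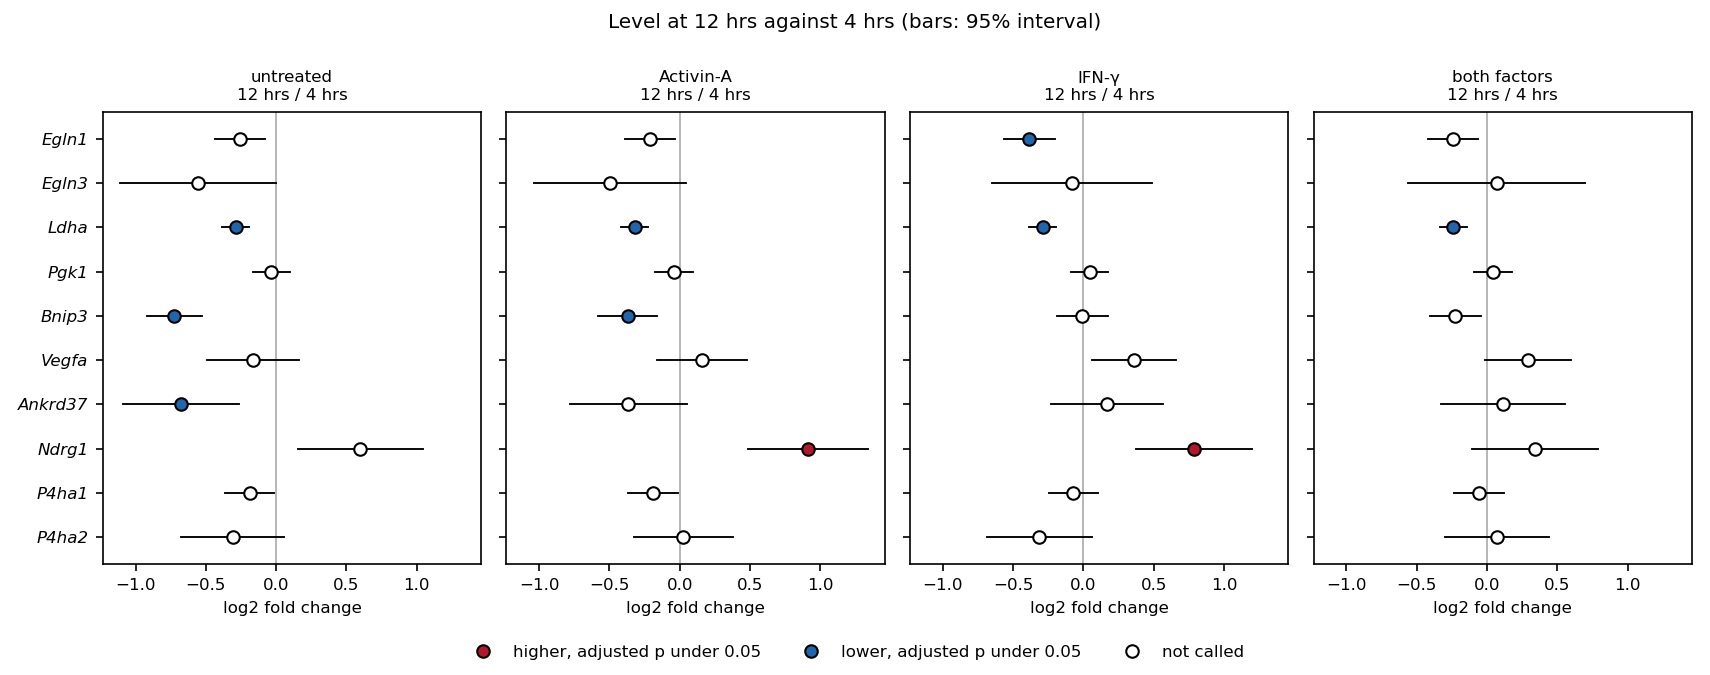
Log2 fold change of each member between 12 and 4 hrs (x axis) in untreated, Activin-A, IFN-γ and both-factor wells, points for the estimate, bars for its 95% interval and fill for an adjusted p under 0.05. Ldha is lower at 12 hrs in all 4 panels (-0.29, -0.32, -0.29 and -0.24), and Bnip3 in untreated (-0.72) and Activin-A wells (-0.37).

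The order of the group means differed between members. For Bnip3 the top 4 groups were both factors at 4 hrs (a mean of 230.1 CPM), IFN-γ at 4 hrs (225), IFN-γ at 12 hrs (223) and untreated at 4 hrs (211), and Activin-A at 12 hrs was lowest (117). Each neighbouring pair in this order overlapped. For Ldha the order followed time, with all groups at 4 hrs above those at 12 hrs, and wells separated only between both factors at 4 hrs (3272) and Activin-A at 4 hrs (2965) and between untreated (2680) and Activin-A (2372) at 12 hrs. For the other 8 members all neighbours overlapped. Pearson's r between members, over log2 CPM of the 32 samples, ran from -0.54 for Ldha with Ndrg1 to 0.70 for Ldha with Bnip3. The genes outside the list whose log2 CPM followed a member most closely over the 32 samples, among 9322 genes, were Mt1 for Ldha (r = 0.94) and Mt2 for Bnip3 (r = 0.90), followed by Srsf2 for Egln1 (0.78), Arl6ip5 for Pgk1 (0.76), Daxx for Vegfa (0.76) and Yars for Ndrg1 (0.75). For Ankrd37 the closest gene was Fam162a (0.62), one of the other hypoxia targets followed below. For Egln3, P4ha1 and P4ha2 the closest were H2-Aa (0.61), 1700012B09Rik (0.63) and Sf3b5 (0.60). Each point shares its library between the genes, and the part of the differences between groups in these values was not tested.

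Of 17 listed regulators of the HIF pathway itself 15 were tested. DEGs among them were 0 with either factor at 4 hrs by edgeR, against 1.64% of all genes with Activin-A and 5.06% with IFN-γ. The unadjusted p was under 0.05 for 1 gene with each factor, as for 1028 and 1217 of 9137 genes. At 12 hrs 1 of 15 was a DEG with each factor, against 2.41% and 9.25% of all genes. At 12 hrs Arnt2, a dimer partner of HIF alpha subunits, fell with Activin-A (a mean of 6.42 against 15.6 CPM, log2 fold change -1.34, SE 0.35, edgeR adjusted p = 0.0125), and Vhl, which targets HIF alpha for degradation, rose with IFN-γ (27.1 against 17.2 CPM, 0.65, SE 0.22, edgeR adjusted p = 0.0498). Hif1an, the asparaginyl hydroxylase that blocks HIF's coactivators, rose with both factors against Activin-A alone at 12 hrs (19.2 against 9.55 CPM, 0.99, SE 0.30, edgeR adjusted p = 0.0208). Hif1an was the single DEG of the 15 in that comparison, against 9.62% of all genes. Between 4 and 12 hrs with Activin-A 3 of 15 were DEGs, against 6.97% of all genes. Hif1a rose (121 to 152 CPM, 0.30, SE 0.10, edgeR adjusted p = 0.0408), as did Cited2, a competitor for HIF's coactivators (0.48, SE 0.09, edgeR adjusted p = 7.44e-05), and Hif1an fell (-1.09, SE 0.28, edgeR adjusted p = 0.00698). Most of these calls were frail. Vhl was lost under 4 of 7 alternatives, among them DESeq2 (adjusted p = 0.263), and with 6 of 8 wells left out. Arnt2, which had no adjusted p in DESeq2, was lost without replicate 2 of the untreated wells or replicate 1 of Activin-A (edgeR adjusted p of up to 0.12). Hif1an with both factors was lost with DESeq2 (adjusted p = 0.113) and with 3 of 8 wells left out, and its fall over time without replicate 1 of Activin-A at 4 hrs (edgeR adjusted p = 0.0538). Hif1a was lost with DESeq2 (adjusted p = 0.112) and with 6 of 8 wells left out, replicate 1 of Activin-A at 4 hrs among them (edgeR adjusted p = 0.0801). Cited2 was kept throughout. Epas1, which encodes the other main alpha subunit, had 0 to 3 counts per sample. The median log2 fold change of the list was 0.00 and 0.06 with Activin-A and 0.09 and 0.02 with IFN-γ at 4 and 12 hrs.

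Other genes of glucose uptake, glycolysis and lactate export were followed as partners of Ldha and Pgk1. Of 22 listed genes 17 were tested. With Activin-A at 12 hrs 2 fell, the lactate transporter Slc16a1 (153 against 219 CPM, -0.53, SE 0.09, edgeR adjusted p = 1.53e-05) and the aldolase Aldoa (2469 against 2748 CPM, -0.16, SE 0.05, edgeR adjusted p = 0.0383), where 1.16% of all genes were lower DEGs, and 0 rose. The log2 fold change was above 0 for 4 of 17, with a median of -0.12. At 4 hrs 0 of 17 were DEGs by edgeR, against 1.64% of all genes, and 5 had an unadjusted p under 0.05. The median log2 fold change was then -0.10, with 3 of 17 above 0. With IFN-γ the hexokinases, which trap glucose in the cell, rose at both times. Hk2 went from 34.1 to 104.8 CPM at 4 hrs (1.63, SE 0.15, edgeR adjusted p = 1.02e-13) and from 29.2 to 68.2 CPM at 12 hrs (1.24, SE 0.16, edgeR adjusted p = 2.48e-10), and Hk1 rose by 0.57 and 0.54 (SE 0.11 each, edgeR adjusted p of 0.000171 and 0.000107). The lactate exporter Slc16a3 (0.55, SE 0.15, edgeR adjusted p = 0.00828) and Aldoa (0.15, SE 0.05, edgeR adjusted p = 0.0177) also rose at 12 hrs, so that 4 of 17 rose and 0 fell, where 6.43% of all genes were higher DEGs. The log2 fold change was above 0 for 13 of 17, with a median of 0.14. The count of DEGs was 7 in a fit of only the 8 samples compared and 2 to 6 with a well left out. Hk2 and Hk1 with IFN-γ and Slc16a1 with Activin-A were kept under every alternative and with each well left out. Slc16a3 was lost with DESeq2 (adjusted p = 0.0909) and without replicates 2 or 4 of IFN-γ (edgeR adjusted p of up to 0.159), and the rise of Aldoa without replicate 2 of the untreated wells or replicate 4 of IFN-γ (edgeR adjusted p of up to 0.103). The fall of Aldoa with Activin-A was lost in a fit of all 32 samples and with 5 of 8 wells left out. Both factors against Activin-A alone raised 4 of 17 at 4 hrs (Hk2, Hk1, Slc16a3 and Slc2a1, by 0.29 to 1.43) and 7 of 17 at 12 hrs, of which Hk2, Aldoa, Slc2a1, Slc16a1 and Hk1 had the smallest p, where 4.41% and 6.18% of all genes were higher DEGs. With DESeq2 these counts were 2 and 3, and with a well left out they ranged from 2 to 4 and from 3 to 7. Without replicate 1 of Activin-A at 4 hrs, Hk2 (1.43, edgeR adjusted p = 1.24e-12), Hk1 (0.47, edgeR adjusted p = 0.00584) and Slc16a3 (0.64, edgeR adjusted p = 0.00142) were kept and Slc2a1 was lost (0.23, edgeR adjusted p = 0.166). At 12 hrs Hk2, Aldoa and Slc2a1 were kept throughout. Both factors against IFN-γ alone lowered Slc16a1 at 4 hrs (-0.37, SE 0.09, edgeR adjusted p = 0.0172), which was lost with DESeq2 (adjusted p = 0.0723) and with 5 of 8 wells left out. At 12 hrs that comparison gave 0 DEGs by edgeR, against 1.03% of all genes, with 4 genes at an unadjusted p under 0.05. Over time in untreated wells Slc16a1, Slc2a1 and Slc16a3 fell by 0.36, 0.39 and 0.75 (SE 0.09, 0.10 and 0.15), 3 of 17 where 2.57% of all genes were lower DEGs, and 0 rose.

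**Figure D4:**
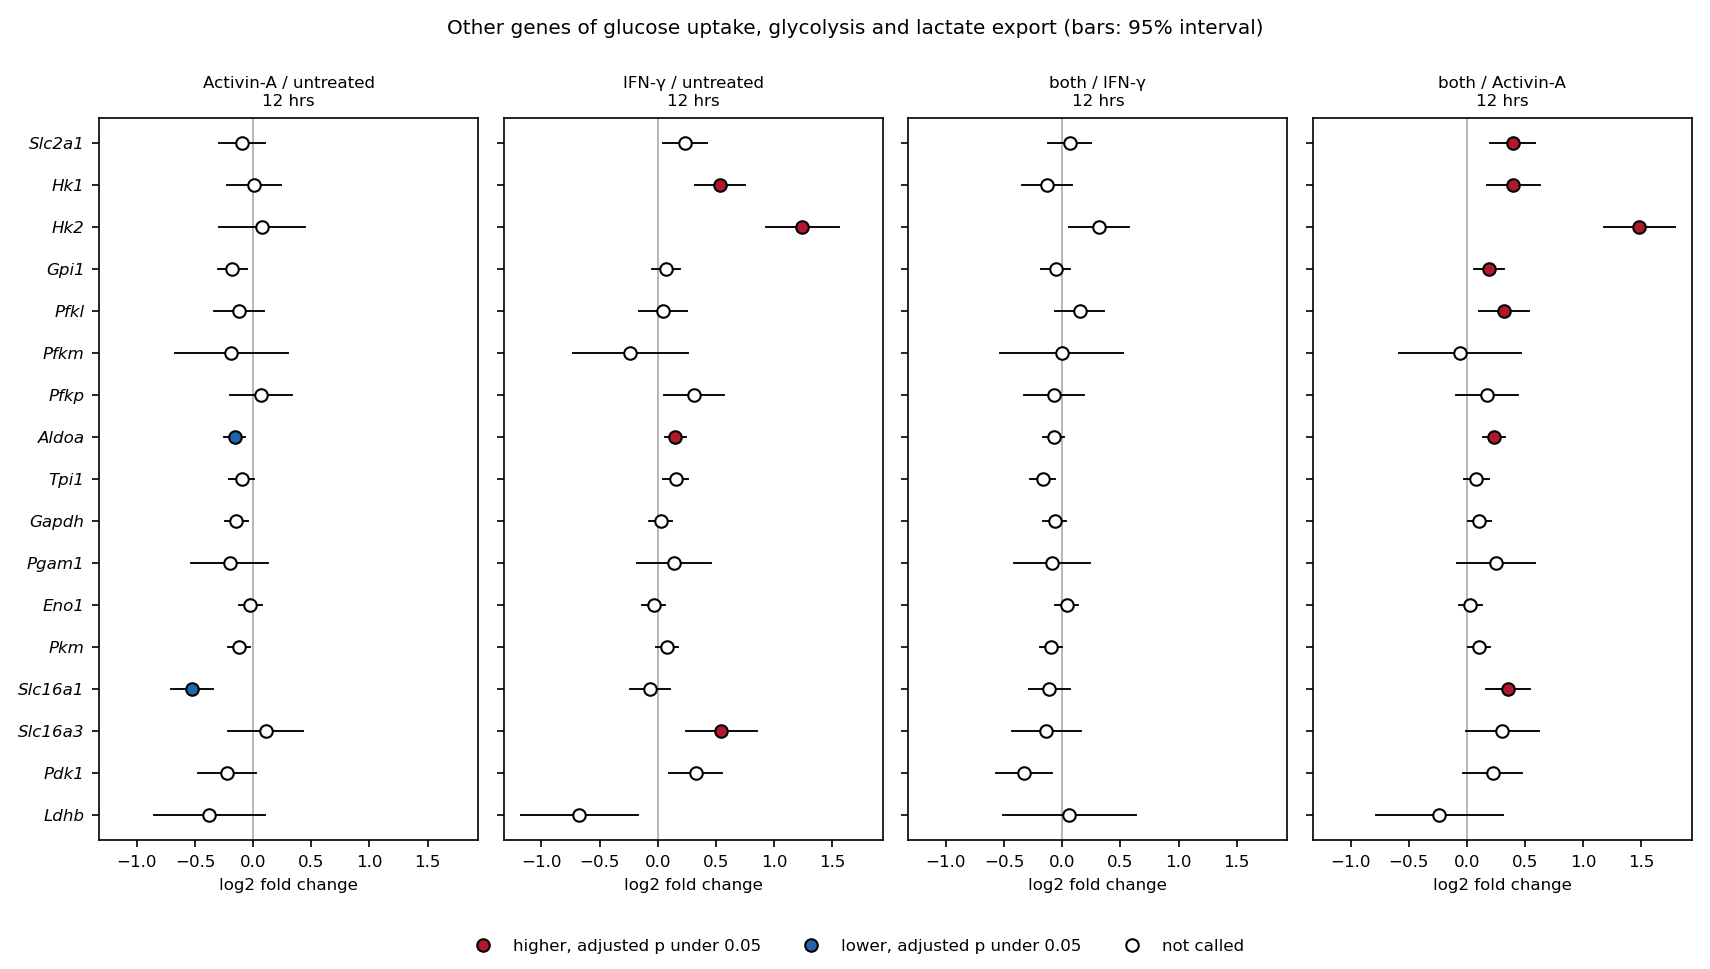
Log2 fold change at 12 hrs (x axis) of the 17 tested genes of glucose uptake, glycolysis and lactate export that are no members, for Activin-A or IFN-γ against untreated wells and for both factors against each, points for the estimate, bars for its 95% interval and fill for an adjusted p under 0.05. Activin-A has 2 filled points, both lower, IFN-γ has 4, all higher, with Hk2 at 1.24, and both factors against Activin-A has 7, all higher.

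Of 29 other known hypoxia targets 24 were tested. With Activin-A 2 of 24 were DEGs at 4 hrs and 3 of 24 at 12 hrs, against 1.64% and 2.41% of all genes, and with IFN-γ 1 of 24 and 2 of 24, against 5.06% and 9.25%. With Activin-A Stc1, a secreted glycoprotein, fell at both times (-0.56 and -0.55, SE 0.13 and 0.16, edgeR adjusted p of 0.0101 and 0.0339), and the transcriptional repressor Bhlhe40 rose at 12 hrs (0.74, SE 0.22, edgeR adjusted p = 0.046). With IFN-γ the glycogen branching enzyme Gbe1 rose at 4 hrs (0.57, SE 0.17, edgeR adjusted p = 0.0231), and Ankzf1 (1.03, SE 0.28, edgeR adjusted p = 0.00634) and the cytokine Mif (0.17, SE 0.06, edgeR adjusted p = 0.046) rose at 12 hrs. Of these, Stc1 at 4 hrs was kept with each well left out, replicate 1 of Activin-A included (-0.57, edgeR adjusted p = 0.0203), but lost with DESeq2 (adjusted p = 0.0755). Ankzf1 was kept with each well left out and lost with DESeq2 (adjusted p = 0.0562). Stc1 and Bhlhe40 at 12 hrs and Gbe1 were each lost with DESeq2 (adjusted p of 0.189, 0.212 and 0.176) and with 5 of 8 wells left out, and Mif under 4 of 7 alternatives and with 6 of 8 wells left out. The median of the list was -0.16 and 0.01 with Activin-A and -0.04 and 0.13 with IFN-γ at 4 and 12 hrs. Over time in untreated wells 5 of 24 fell, Tfrc, Higd1a, Stc1, Mif and Kdm3a by 0.21 to 0.83, where 2.57% of all genes were lower DEGs, and 0 rose. Tfrc, Higd1a and Stc1 were kept throughout, and Mif and Kdm3a were each lost with 4 of 8 wells left out, Kdm3a also with DESeq2 (adjusted p = 0.0715). With both factors against IFN-γ, Tfrc, the transferrin receptor, rose at 12 hrs (0.74, SE 0.18, edgeR adjusted p = 0.0133), a call lost with DESeq2 (adjusted p = 0.055) and with 3 of 8 wells left out.

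Relatives and partners of single members were also tested. Of 18 collagen-modifying enzymes, the class of P4ha1 and P4ha2, 13 were tested. The lysyl oxidase Loxl1 rose with IFN-γ by 0.44 at 4 hrs and 0.57 at 12 hrs (SE 0.10 each, edgeR adjusted p of 0.00225 and 5.13e-06), Loxl3 rose with Activin-A at 12 hrs (0.33, SE 0.09, edgeR adjusted p = 0.0251), and the collagen chaperone Serpinh1 fell with IFN-γ at 12 hrs (-0.17, SE 0.06, edgeR adjusted p = 0.0319). Loxl1 was kept throughout, whereas Loxl3 was lost with DESeq2 (adjusted p = 0.0915) and with 6 of 8 wells left out, and Serpinh1 with DESeq2 (adjusted p = 0.101) and with 5 of 8. With both factors against Activin-A at 12 hrs 4 of 13 were DEGs, against 9.62% of all genes. The lysyl hydroxylase Plod3 (0.49, SE 0.12, edgeR adjusted p = 0.00192) and Loxl1 (0.37, SE 0.10, edgeR adjusted p = 0.00901) rose, and Serpinh1 (-0.25, SE 0.06, edgeR adjusted p = 0.000725) and the lysyl hydroxylase Plod2 (-0.79, SE 0.22, edgeR adjusted p = 0.0103) fell. With DESeq2 2 of 13 were called, without Loxl1 (adjusted p = 0.0792) and Plod2 (0.0761). At 4 hrs Loxl1 also rose in that comparison (0.57, edgeR adjusted p = 2.03e-05), 1 of 13 against 6.07% of all genes. That call was kept throughout, with 0.59 (edgeR adjusted p = 2.51e-05) without replicate 1 of Activin-A. Of 9 VEGF relatives and receptors 5 were tested at each time. The receptor Flt1 fell with IFN-γ at 4 hrs (124.6 against 179 CPM, -0.52, SE 0.10, edgeR adjusted p = 0.000193), Pgf fell with IFN-γ at 12 hrs (-0.35, SE 0.11, edgeR adjusted p = 0.0235), and Vegfd rose at 12 hrs (0.53, SE 0.18), its edgeR adjusted p rounding to 0.05 from just under the threshold. These 2 of 5 at 12 hrs compare with 9.25% of all genes. Flt1 at 4 hrs was kept throughout. Pgf was lost with DESeq2 (adjusted p = 0.129) and with 4 of 8 wells left out, and Vegfd under 4 of 7 alternatives, DESeq2 among them (adjusted p = 0.244), and with 5 of 8. With both factors against Activin-A at 12 hrs Vegfd rose (0.63, SE 0.18, edgeR adjusted p = 0.0106) and Flt1 fell (-0.33, SE 0.11, edgeR adjusted p = 0.0341), and DESeq2 called neither (adjusted p of 0.0946 and 0.163). At 4 hrs Flt1 also fell in that comparison (-0.57, edgeR adjusted p = 5.79e-05), 1 of 5 against 6.07% of all genes. This call was kept throughout, with -0.47 (edgeR adjusted p = 0.00143) without replicate 1 of Activin-A. With Activin-A 0 of 5 were DEGs by edgeR at either time, against 1.64% and 2.41% of all genes. The unadjusted p was under 0.05 for 1 at 4 hrs and for 0 at 12 hrs. Of Ndrg2, Ndrg3 and Ndrg4, 2 were tested at 4 hrs and 1 at 12 hrs. By edgeR 0 were DEGs with Activin-A, against 1.64% and 2.41% of all genes, or with IFN-γ, against 5.06% and 9.25%. The unadjusted p was under 0.05 for 1 with Activin-A at each time.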

How the data were processed

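Transcripts of YUMM3.3 cells were measured by BRB-seq in 32 wells. The authors deposited raw counts per gene, whole numbers without normalization, and each of the 12451 genes listed has a count above 0 in at least 4 samples. The submitters' processing notes name STAR 2.7.10b, featureCounts, DESeq2 1.36.0 and the build GRCm39. The annotation, strand setting and handling of unique molecular identifiers are not given in the sources used here, so duplicate reads and reads of overlapping genes stay as counted. Identifiers were matched to symbols in GENCODE M21 of GRCm38 (12437 of 12451), and promoters came from RefSeq on GRCm38.p6. No coordinate is that of the deposited table.

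Groups follow the labels. Genes were filtered with filterByExpr, totals normalized by TMM, and tested with edgeR 4.0.16 (glmQLFit, glmQLFTest) in R 4.3.3, over the 16 samples of a time or all 32 across times, with Benjamini-Hochberg adjustment and a threshold of 0.05. Standard errors are the log2 fold change over the square root of F. Log2 CPM used a prior count of 2. The interaction subtracts the Activin-A effect without IFN-γ from that with it. Intervals cover 95%. Python 3.11.15 made summaries and plots, and the fits were tested on simulated data. Depth, 654539 to 1455074 counts per sample, limits precision for members with few counts.

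The members and the gene lists were chosen with earlier results of these data known. All members are described. From each list at most 5 DEGs per comparison, those with the smallest p, were to be named, with Pmepa1 and Irf1 as treatment checks, and for each member the gene with the highest Pearson r. Epas1, Lum, Thy1, Dcn, Ufsp2 and Lrp2bp were named after their values were seen. Some results for the gene lists are not reported here. Alternatives were DESeq2 1.42.0, RLE in place of TMM, testing without a filter, a minimum of 10 counts per sample, a block for the replicate number, fits of all 32 samples or of only those compared, and leaving out each sample.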

Additional observations from a re-analysis of the deposited data

Results flagged for a closer look

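Each member's 4 wells were examined in each of the 8 groups for a well whose gap to its nearest neighbour took up nearly all of the range. Of 80 such sets 3 had one, and chance alone gives about 1 in 20. Ldha with Activin-A at 4 hrs was lowest in replicate 1, at 2783 CPM where the others had 3018 to 3032 CPM, and this is the well that stood apart over all genes. P4ha1 with IFN-γ at 4 hrs was highest in replicate 2, at 259.8 CPM where the others had 214.6 to 217 CPM. P4ha2 with both factors at 4 hrs was highest in replicate 4, at 37.9 CPM where the others had 32.4 to 33.3 CPM.

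The effect of IFN-γ on Bnip3 differed between 12 hrs and 4 hrs, by 0.72 on the log2 scale in edgeR's test of that difference. It was the single one of 40 tests of an interaction or of a difference between times, 4 for each member, with an adjusted p under 0.05.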

How the results depend on the processing

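Of the 16 counts of members that were DEGs, 13 stayed within 1.5 times under every alternative, and 0 of the differences reported changed sign. The count for Activin-A at 12 hrs was 1 and rose to 2 without the filter on low counts, where Pgk1 joined Ldha. Leaving out each sample in turn gave 0 to 2 for Activin-A against untreated at 12 hrs, 1 to 2 for both factors against Activin-A at 4 hrs (main count 1), and 1 to 2 for both factors at 12 against 4 hrs (main count 1). Of 48 differences of single members examined, 10 changed their side of the threshold under an alternative or with a sample left out, and their values stand beside them in the report. Where a sample is left out and no other reason is given, the cause was not tested.

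Replicate numbers were shared across groups by label, and nothing says that they mark a common batch. Deviations from group means correlated between same-numbered samples with a mean r of -0.00023 and a lowest r of -0.09, and 6 of 32 samples correlated best with their own number. With a replicate block in the fit, the number of member DEGs was the same in all 16 comparisons, 3 with IFN-γ and 1 with Activin-A at 12 hrs and 1 with Activin-A at 4 hrs. Among DEGs of the gene lists, the block ended the calls of Vhl with IFN-γ at 12 hrs (edgeR adjusted p = 0.0672) and of Slc2a1 with both factors against Activin-A at 4 hrs (0.0606) and of no other. The block moved the count of all DEGs from 830 to 822 for IFN-γ at 12 hrs.

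Depth limits Egln3, Ankrd37, Ndrg1, P4ha2 and Vegfa most. With 6 to 34 counts per sample, the 95% intervals of Egln3 with Activin-A span -0.48 to 0.64.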
